A study of Mus musculus with 6 samples.

Results

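The genes described here are 9 whose products serve mouse platelets at the cell surface or in the alpha granules. They are Gp9, Gp1ba, Gp1bb and Gp5, the subunits of the GPIb-IX-V complex, Gp6 and Clec1b, 2 activating receptors, Treml1, a receptor stored in the granule membrane, and the chemokines Pf4 and Ppbp. They were chosen by name, as every probe besides controls whose transcript accession belongs to a listed symbol, and they are 9 of the 22815 genes that could be named on the array. They are read by 12 probes, 2 each for Gp1bb, Gp6 and Treml1 and 1 for each other gene. The measured tissue was whole heart, so a change in the number of platelets or megakaryocytes and a change in RNA per cell cannot be told apart.

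The hearts came from male C57BL6 mice aged 10 weeks. All 6 mice were starved for 16 h and received 20 mg/kg lipopolysaccharide (LPS), a bacterial endotoxin, in the peritoneum. The 3 rhTM mice were given recombinant human thrombomodulin (rhTM) at 3 and 24 h after LPS, the 3 saline mice were given saline, and RNA was taken at 30 h from 1 heart per array. Thrombomodulin is an endothelial protein that binds thrombin and turns it towards activating protein C, and the series asks what it does to the heart in endotoxemia. Both groups carried LPS and no heart without LPS was analysed here, so the values below set 2 LPS groups against each other.

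Platelets have no nucleus and carry RNA made in the megakaryocyte. In the GPIb-IX-V complex, GPIb alpha (Gp1ba) binds von Willebrand factor and is joined to GPIb beta (Gp1bb), while GPIX (Gp9) is needed for the complex to reach the surface and GPV (Gp5) associates with it. GPVI (Gp6) binds collagen and CLEC-2 (Clec1b) binds podoplanin, and both signal through the kinase Syk. TLT-1 (Treml1) moves to the surface when the granules fuse, and platelet factor 4 (Pf4) and pro-platelet basic protein (Ppbp) are chemokines released from them. The transcripts of most of these genes are used as markers of platelets and megakaryocytes, although Pf4 is also found in some mouse tissue macrophages and Clec1b in some other blood and liver cells.

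GATA and ETS factors are known drivers of megakaryocyte genes, so the bases before the start sites were searched for their core letters, GATAA and GGAAG, on both strands (TTATC and CTTCC on the other). The 250 bases before the start are shown for Gp9, the member that passed the test between the groups, and for Treml1, the member nearest to it. They are from RefSeq on build GRCm38.p6, at chr6:87777820-87778069 for Gp9 and chr17:48359666-48359915 for Treml1, both on the plus strand, and capitals mark the 2 motifs.
Gp9: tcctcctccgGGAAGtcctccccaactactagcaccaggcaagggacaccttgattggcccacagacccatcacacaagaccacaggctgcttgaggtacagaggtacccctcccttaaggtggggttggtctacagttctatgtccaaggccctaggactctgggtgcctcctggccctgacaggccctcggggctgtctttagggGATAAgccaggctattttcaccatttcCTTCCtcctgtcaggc
Treml1: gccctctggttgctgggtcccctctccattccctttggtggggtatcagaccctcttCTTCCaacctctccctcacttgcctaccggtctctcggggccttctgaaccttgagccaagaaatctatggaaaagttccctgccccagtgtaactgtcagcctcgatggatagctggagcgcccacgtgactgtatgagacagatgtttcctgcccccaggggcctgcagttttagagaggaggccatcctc
The Gp9 window held GATAA at -43 and the ETS letters at -240 and -16, counted from the start site with -1 next to it. The Treml1 window held the ETS letters once, at -193, and no GATAA. Windows were found for all 9 members, of which 5 held GATAA (Gp9, Gp1ba, Gp5, Gp6 and Clec1b), 7 held GGAAG and 3 held both. Of all 32851 windows of this length in the RefSeq table, 22.6% held GATAA, 64.1% held GGAAG and 13.2% held both. A match is a description of the letters and shows no bound factor.

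Values are log2 of the background-corrected spot signal minus the array's own 75th percentile, so a level of 0 is a probe at that percentile. That percentile was 463, 466 and 412 signal units in rhTM hearts 1, 2 and 3, against 732, 671 and 394 in saline hearts 1, 2 and 3. Between 54.8% and 62.8% of the 59305 spots besides controls were well above background on an array, and none were saturated. Saline hearts 1 and 2 were on slide 1, while saline heart 3 and all rhTM hearts were on slide 2. A fit with the slide as a block was therefore run, in which the estimate equals the rhTM mean minus saline heart 3 and so rests on 1 saline array. A gene was tested where every array of 1 group or of both read its brightest probe as well above background, which held for 14701 genes and for 7 of the 9 members. The test was limma's moderated fit with Benjamini-Hochberg adjustment over all genes tested, and a gene was called at an adjusted p under 0.05.

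**Figure D1:**
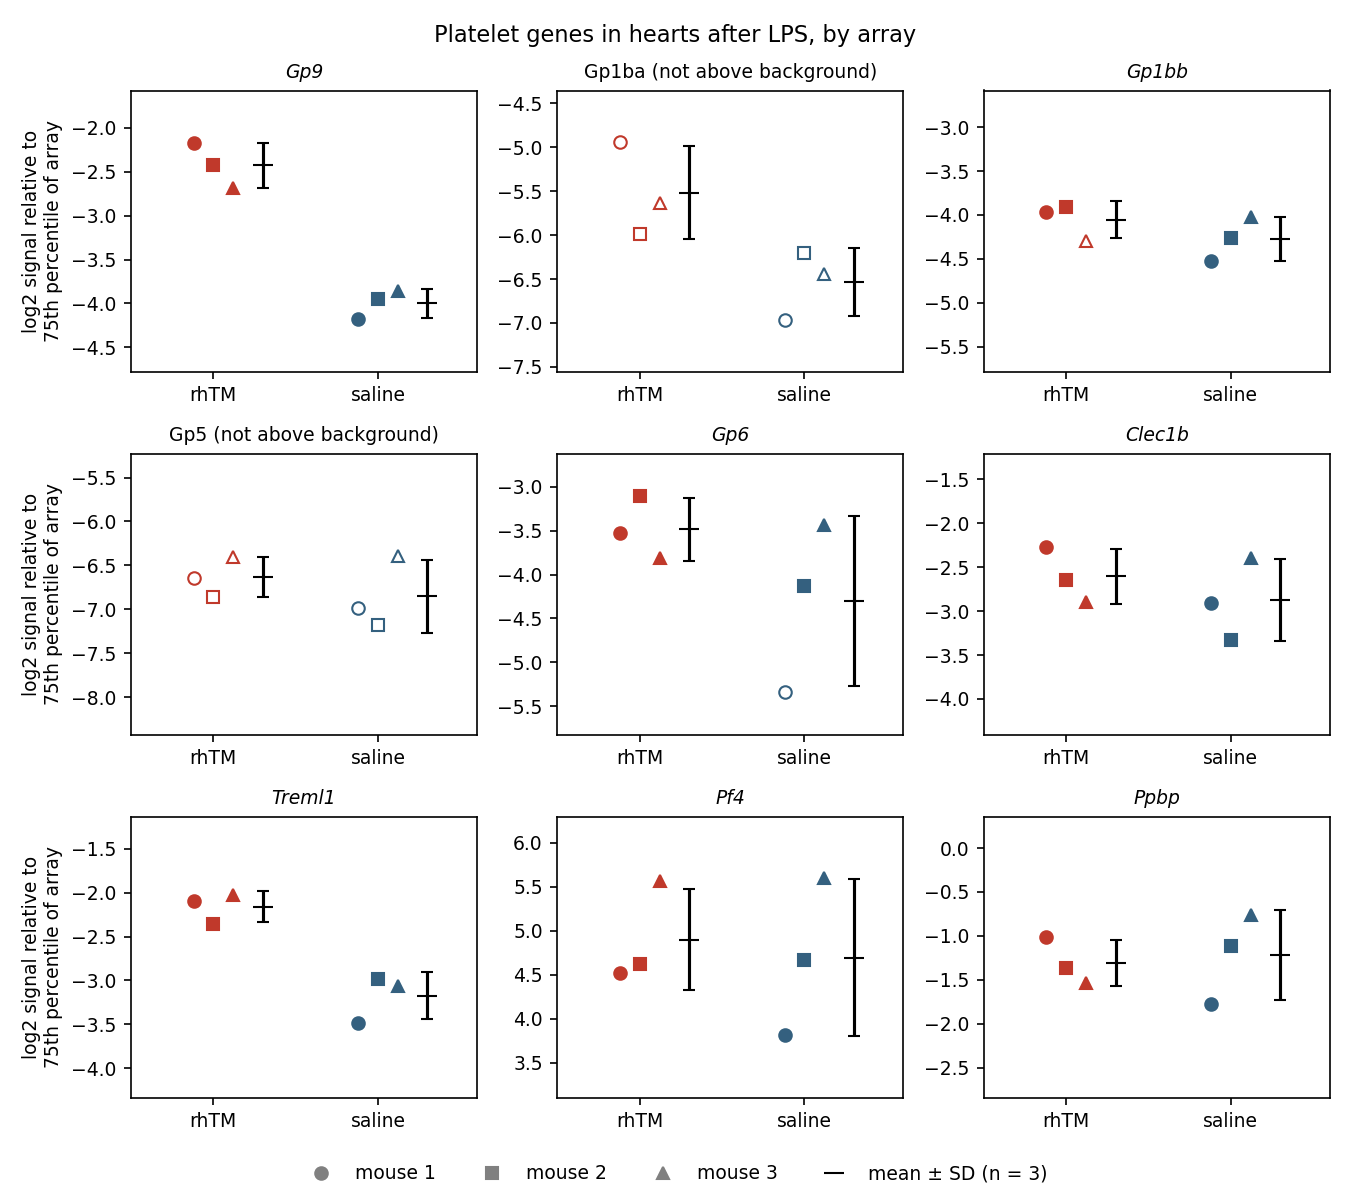
Level of each of the 9 genes by its brightest probe, as log2 signal minus the array's 75th percentile, with rhTM hearts left and saline hearts right. Circles, squares and triangles are mice 1, 2 and 3, open symbols are arrays where the probe was not well above background, and bars are the mean ± SD (n = 3 each). Gp9 and Treml1 have groups that do not overlap, Pf4 lies highest in mouse 3 of both groups, and Gp1ba and Gp5 are open on all 6 arrays.

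Gp9, the GPIX subunit, was the member that rose. Its probe (A_51_P153995) gave signals of 103, 86.7 and 64.2 in rhTM hearts 1, 2 and 3, against 40.4, 43.4 and 27.1 in saline hearts 1, 2 and 3. Relative to the 75th percentile, the level was -2.17, -2.43 and -2.68 in rhTM hearts and -4.18, -3.95 and -3.86 in saline hearts. All 3 rhTM hearts lay above all 3 saline hearts, also before any scaling between arrays, where the difference was 1.20 on the log2 scale (2.29-fold). The mean was -2.43 ± 0.25 in rhTM hearts and -4.00 ± 0.17 in saline hearts (SD, n = 3 each). The difference was 1.57 ± 0.21 (SE) on the log2 scale, or 2.97-fold, with a 95% interval of 1.07 to 2.07 (limma, adjusted p = 0.0248). By p it ranked 108 among the 14701 genes.

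With the slide as a block the Gp9 difference was 1.43, or 2.70-fold (limma, adjusted p = 0.0422). In a fit over 30322 single probes, in which 2.24% were called higher, its adjusted p was 0.0267 (limma). Same-numbered mice deviated together over all genes, but so did some other pairs, and the titles name no pairing. Between same-numbered mice Gp9 differed by 2.01, 1.52 and 1.18 on the log2 scale. Gp9 is a dim gene here, and dim genes on these arrays tended to be higher in rhTM hearts. Among the 1326 genes whose mean level lay within 0.5 of that of Gp9, the median difference was 0.31, 5.05% were called higher and 8.45% had a difference at least as high as that of Gp9. In the slide fit the median of those genes was 0.09. The call was lost with normexp background correction (difference 0.58, adjusted p = 0.136, limma), with normexp without an offset (0.83, adjusted p = 0.172), with no filter on dim probes (adjusted p = 0.0533) and without rhTM heart 1 (1.44, adjusted p = 0.137), rhTM heart 2 (1.57, adjusted p = 0.155), saline heart 1 (1.48, adjusted p = 0.116) or saline heart 2 (1.59, adjusted p = 0.0674).

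The other subunits of the complex gave no call. Gp1bb, the GPIb beta subunit, had signals of 29.7, 31.1 and 21.0 in rhTM hearts, against 31.8, 34.9 and 24.2 in saline hearts, from a probe well above background on 2 rhTM and 3 saline arrays. Its levels were -3.96, -3.90 and -4.30 in rhTM hearts and -4.52, -4.26 and -4.02 in saline hearts, so the groups overlapped. The difference of 0.22 ± 0.22 (SE) had a 95% interval of -0.30 to 0.74 (limma, adjusted p = 0.517). Its sign turned in the slide fit (-0.03), under quantile normalisation (-0.12) and under normexp (-0.13), so no direction is given for Gp1bb.

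Gp1ba, which holds the von Willebrand factor site, had signals of 15.1, 7.37 and 8.31 in rhTM hearts, against 5.86, 9.07 and 4.55 in saline hearts. Gp5 had signals of 4.64, 4.01 and 4.88 in rhTM hearts, against 5.76, 4.64 and 4.70 in saline hearts. None of the 6 arrays read either probe as well above background, so a difference in Gp1ba or Gp5 was not detectable here and no fold is given. The same was true of the other probe of Gp1bb. Of the 4 genes of this complex, Gp9 alone had a probe well above background on all 6 arrays.

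Gp1bb overlaps Septin5, a cytoskeletal septin gene, on the reference genome, and the 2 probes of Septin5 gave opposite signs. The brighter (A_51_P464530) had signals of 162, 213 and 190 in rhTM hearts, against 759, 721 and 220 in saline hearts, with a difference of -1.03 (limma, adjusted p = 0.0919) and of -0.41 in the slide fit. The dimmer (A_55_P2039881) had signals of 115, 137 and 112 in rhTM hearts, against 105, 97.9 and 38.5 in saline hearts, with a difference of 1.09 (limma over probes, adjusted p = 0.0551). The brighter probe was thus far higher in saline hearts 1 and 2, those of slide 1, than in the other 4 hearts, and Septin5 was not called.

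Treml1, the granule membrane receptor TLT-1, was the member nearest to the threshold. Its brighter probe (A_51_P279062) gave signals of 108, 90.8 and 101 in rhTM hearts, against 65.6, 85.2 and 47.2 in saline hearts. Its levels were -2.10, -2.36 and -2.02 in rhTM hearts and -3.48, -2.98 and -3.06 in saline hearts, and the groups did not overlap. The mean was -2.16 ± 0.18 in rhTM hearts and -3.17 ± 0.27 in saline hearts (SD, n = 3 each). The difference was 1.01 ± 0.22 (SE), or 2.02-fold, with a 95% interval of 0.50 to 1.53, and its adjusted p of 0.05002 (limma) missed the threshold. Before any scaling between arrays it was 0.64 (1.56-fold), and the groups still did not overlap.

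In the slide fit the Treml1 difference was 0.90 (limma, adjusted p = 0.0983). Treml1 passed when each array was centred on the median of the genes tested (1.09, adjusted p = 0.0453, limma). With the deposited value table it passed too (1.00, adjusted p = 0.0124, limma), but that table holds a baseline per probe that differs between slides. Treml1 also passed where only genes read on all 6 arrays were tested (limma, adjusted p = 0.0483) and without saline heart 3 (1.07, adjusted p = 0.0148). It did not pass, and was smaller, with normexp (0.40, adjusted p = 0.202, limma), with normexp without an offset (0.50, adjusted p = 0.228) and as the mean of its 2 probes (0.70, adjusted p = 0.117), and its adjusted p was 0.108 with no filter. Among 1376 genes of like level (within 0.5), the median difference was 0.23, and 14.7% had a difference at least as high as that of Treml1. No array read the other Treml1 probe as well above background.

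**Figure D2:**
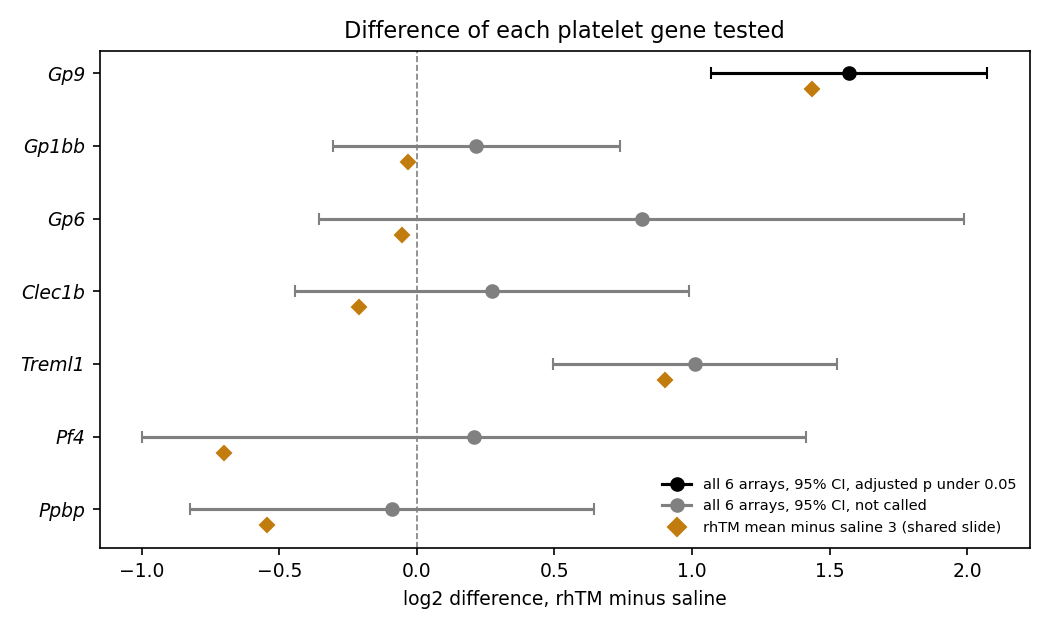
Difference in level, rhTM minus saline on the log2 scale, for the 7 genes tested, with 95% intervals (limma, n = 3 each), black where the gene was called. Orange diamonds are the rhTM mean minus saline heart 3, the estimate within slide 2. Gp9 at 1.57 and Treml1 at 1.01 keep their sign within the slide, while the diamonds of Gp6, Gp1bb, Clec1b, Pf4 and Ppbp lie below 0.

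The 2 activating receptors gave no call. Gp6, the collagen receptor, had signals of 40.1, 54.1 and 29.2 in rhTM hearts, against 18.1, 38.3 and 36.6 in saline hearts. Its levels were -3.53, -3.11 and -3.82 in rhTM hearts and -5.34, -4.13 and -3.43 in saline hearts, and saline heart 3 lay inside the rhTM range. Saline heart 1 was the lowest of the 6, and the probe was well above background on 3 rhTM and 2 saline arrays. The difference was 0.82 ± 0.49 (SE), with a 95% interval of -0.36 to 1.99 (limma, adjusted p = 0.288), and it was -0.05 in the slide fit.

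Clec1b, the podoplanin receptor, had signals of 96.0, 74.8 and 55.5 in rhTM hearts, against 97.8, 67.0 and 75.1 in saline hearts. Its levels were -2.27, -2.64 and -2.89 in rhTM hearts and -2.90, -3.32 and -2.39 in saline hearts, and the groups overlapped. The difference was 0.27 ± 0.30 (SE), with a 95% interval of -0.44 to 0.99 (limma, adjusted p = 0.552), and it was -0.21 in the slide fit. Clec1b overlaps Clec12b on the reference genome, and which of the overlapping transcripts its probe reads was not analysed here.

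The 2 chemokines had the smallest estimated differences of the 7 members tested, with wide intervals. Pf4 gave signals of 10629.5, 11458 and 19458 in rhTM hearts, against 10304, 16990 and 19161 in saline hearts. Its levels were 4.52, 4.62 and 5.56 in rhTM hearts and 3.81, 4.66 and 5.60 in saline hearts, with mouse 3 highest in both groups. The difference of 0.21 ± 0.50 (SE) had a 95% interval of -0.999 to 1.41 (limma, adjusted p = 0.801), and it was -0.70 in the slide fit (adjusted p = 0.402).

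Ppbp gave signals of 229, 181 and 142 in rhTM hearts, against 213, 311 and 232 in saline hearts. Its levels were -1.02, -1.37 and -1.54 in rhTM hearts and -1.78, -1.11 and -0.76 in saline hearts, spreading more among saline hearts. The difference of -0.09 ± 0.31 (SE) had a 95% interval of -0.82 to 0.64 (limma, adjusted p = 0.860), and it was -0.54 in the slide fit. Pf4 and Ppbp are neighbours on chromosome 5, between Cxcl5 and Cxcl3. By level, mouse 3 of the rhTM group was the highest rhTM heart for Pf4 and the lowest for Ppbp. Among saline hearts both genes were lowest in mouse 1 and highest in mouse 3.

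In all, 1 of the 7 members tested was called higher (Gp9), against 2.75% of all genes tested, and 0 were called lower, against 2.41% of all genes. At an unadjusted p under 0.05, 2 were higher (limma) and 0 lower. The difference was above 0 for 6 members and below 0 for 1, with a median of 0.27 on the log2 scale, against 0.01 over all 14701 genes. Genes of like level (within 0.5) had medians of 0.31 (Gp9), 0.54 (Gp1bb), 0.41 (Gp6), 0.24 (Clec1b), 0.23 (Treml1), 0.07 (Pf4) and 0.02 (Ppbp). The median of the members thus lay within the range of these medians. The groups did not overlap for 2 members, Gp9 and Treml1, with rhTM higher, against 17.0% of all genes. Among genes of like level that share was 23.8% for Gp9 and 20.9% for Treml1. In the slide fit 1 member was called higher (Gp9), against 3.83% of all genes, the difference was above 0 for 2 members and below 0 for 5, and the median was -0.05. With the mouse number as a block 1 member was called higher (Gp9), against 2.43% of all genes.

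The gap between Gp9 and another member was also read within each array, where scaling cancels. Gp9 was singled out for its call and 3 hearts against 3 allow no exact p under 0.1, so these gaps are given as a description, for the members well above background on all 6 arrays. The level of Gp9 minus that of Clec1b was 0.10, 0.21 and 0.21 in rhTM hearts and -1.28, -0.62 and -1.47 in saline hearts. The mean gap to Clec1b was 1.30 higher in rhTM hearts, that to Ppbp 1.66 higher and that to Treml1 0.56 higher, each without overlap of the groups. The mean gap to Pf4 was 1.36 higher, with overlap.

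The label of the set was set against other genes of the platelet and megakaryocyte lineage. Of 31 such genes, 21 were tested, of which 0 were called higher and 2 lower (Itgb3 and Selp), against 2.75% and 2.41% of all genes tested. The difference was above 0 for 9 and below 0 for 12, with a median of -0.22 and of -0.07 in the slide fit. Several genes that define the lineage could not be read. Itga2b, the integrin subunit that marks platelets, was well above background on 0 rhTM and 2 saline arrays, and no array read Tubb1, F2rl3, Gfi1b, Gata1, Ly6g6f or Cd226 so.

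Itgb3, the integrin subunit that pairs with Itga2b in platelets and is also made by other cells, fell in rhTM hearts. Its levels were -1.84, -1.78 and -0.65 in rhTM hearts and 1.89, 0.81 and 1.74 in saline hearts, without overlap. The difference was -2.90 ± 0.43 (SE; limma, adjusted p = 0.0286), and it was -3.16 in the slide fit (adjusted p = 0.0520) and -1.73 with its other probe. Selp, the P-selectin of platelet granules and activated endothelium, had levels of -4.53, -4.18 and -1.26 in rhTM hearts and 0.51, 0.97 and 0.74 in saline hearts. It fell by 4.06 ± 0.83 (SE) on the log2 scale (limma, adjusted p = 0.0465), with the same difference but no call in the slide fit (-4.06, adjusted p = 0.109) and with the mouse number as a block (-4.06, adjusted p = 0.0536). Both calls were also lost without rhTM heart 1 or 2 or saline heart 1 or 2, where Itgb3 lay between -3.24 and -2.69 and Selp between -4.18 and -3.46. The other Itgb3 probe was well above background on 0 rhTM and 3 saline arrays and did not pass (limma over probes, adjusted p = 0.107). Other Selp probes gave -3.33 and -1.98 and did not pass (limma over probes, adjusted p = 0.106 and 0.197). As the mean of its probes Selp lost its call (-3.13, limma, adjusted p = 0.0637), while Itgb3 kept it (adjusted p = 0.0467).

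Lineage genes on the other side did not pass. P2ry12, the ADP receptor of platelets and microglia, had signals of 42.6, 62.6 and 37.9 in rhTM hearts, against 14.1, 5.13 and 23.2 in saline hearts, where no array read it as well above background. Set against the lowest signal that was well above background, P2ry12 was 2.78-fold higher in rhTM hearts. That fold was not tested. With the saline signals as read, the log2 difference was 2.34 (limma, adjusted p = 0.0917). P2ry12 entered the test through the rhTM arrays alone, and its log2 difference was smaller in the slide fit (0.82) and with normexp (0.41). P2ry1, another ADP receptor, differed by 1.36 (limma, adjusted p = 0.152; 0.0391 with the mouse number as a block). Trpc6, a cation channel, differed by 0.95 (limma, adjusted p = 0.103), but by 0.32 in the slide fit and 0.21 as the mean of its probes, 2 of which no array read as well above background.

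**Figure D3:**
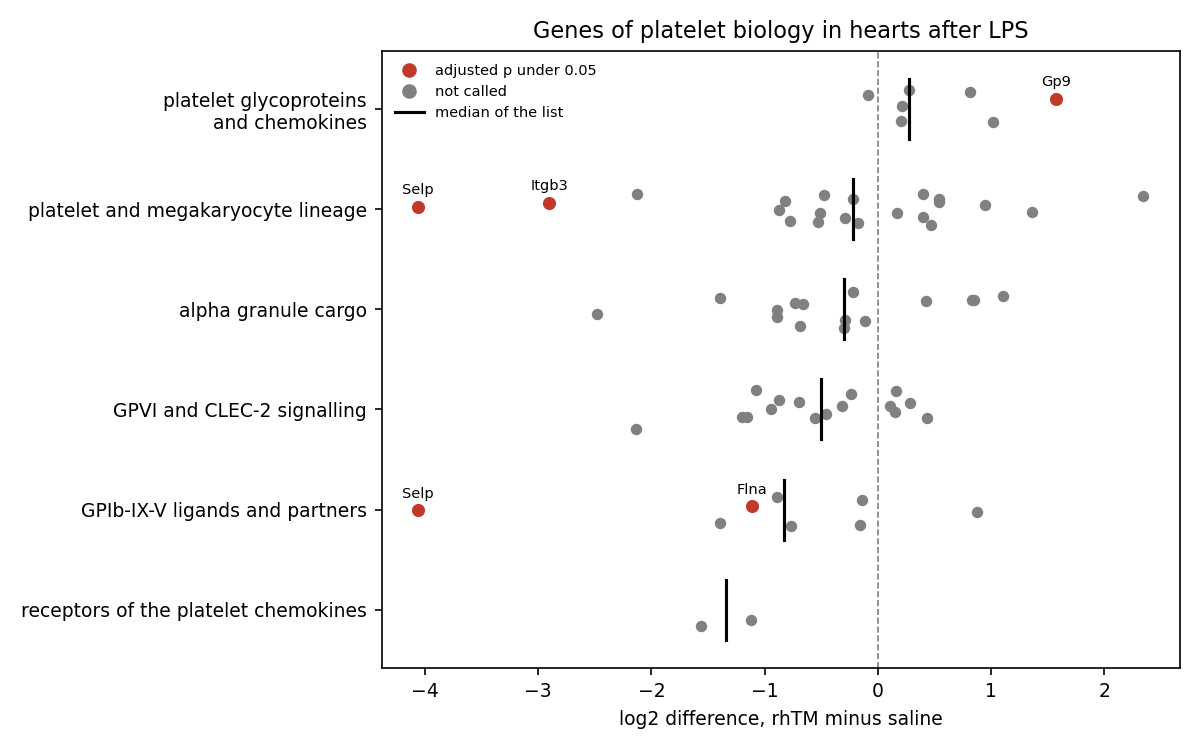
Difference in level, rhTM minus saline on the log2 scale, of every tested gene of the 9-gene set and of 5 other platelet lists, 1 dot a gene, red where adjusted p was under 0.05 (limma), with a black line at each list's median. The set's median is 0.27, while the medians of the other lists lie between -1.34 and -0.22.

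The pathways around the set held mostly lower values in rhTM hearts. Besides the members, 79 genes in 5 lists were looked at and 59 were tested, with a median of -0.31 against 0.01 over all genes tested. Of the 59, 0 were called higher and 3 lower, against 2.75% and 2.41% of all genes tested. The list of GPIb-IX-V ligands and partners had 8 tested genes, 1 above 0 and 7 below, and 2 called lower, Selp and Flna. Flna, the filamin that ties GPIb alpha to actin, had a difference of -1.11 ± 0.19 (SE; limma, adjusted p = 0.0378), which was as large but did not pass in the slide fit (-1.11, adjusted p = 0.0551) and with the mouse number as a block (-1.11, adjusted p = 0.0538). Without rhTM heart 1 or 2 or saline heart 1 or 2 it lay between -1.17 and -1.02 and did not pass. Its other probe, also read as well above background on all 6 arrays, gave 0.15, so the probes of Flna disagree.

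Vwf, the von Willebrand factor that the complex binds, had levels of 2.61, 2.68 and 2.52 in rhTM hearts and 3.62, 4.32 and 2.55 in saline hearts. Saline heart 3 lay among the rhTM hearts, and the difference of -0.89 ± 0.43 (SE; limma, adjusted p = 0.210) was 0.06 in the slide fit. Ywhaz, a 14-3-3 protein that binds the GPIb tails, differed by -0.77 (limma, adjusted p = 0.0767), Thbs1, thrombospondin 1, by -1.39 (adjusted p = 0.319), and Itgam, the alpha subunit of the Mac-1 integrin that binds GPIb alpha, by 0.87. In the slide fit Itgam differed by 0.27, and with the deposited value table by 0.18.

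Of 16 tested genes of GPVI and CLEC-2 signalling, 5 lay above 0 and 11 below and 0 were called (limma). The median was -0.50, and -0.32 in the slide fit. Syk, the kinase that both receptors use, had levels of 1.06, 1.38 and 1.48 in rhTM hearts and 2.44, 2.26 and 2.05 in saline hearts, without overlap, and its difference of -0.95 ± 0.21 (SE) missed the threshold (limma, adjusted p = 0.0528). Pdpn, the podoplanin that CLEC-2 binds, had levels of 0.62, 0.52 and 2.41 in rhTM hearts and 2.81, 2.90 and 4.26 in saline hearts. Its difference of -2.14 ± 0.62 (SE) missed the threshold (limma, adjusted p = 0.0884) and passed with the mouse number as a block (adjusted p = 0.0390). Pecam1, also counted among endothelial markers, differed by -1.08 (limma, adjusted p = 0.111) and by -0.32 in the slide fit.

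Alpha granule cargo besides the 2 chemokines had 15 tested genes, 4 above 0 and 11 below, with 0 called (limma). Its median was -0.30, and -0.15 in the slide fit. Pdgfa, a growth factor, differed by -0.74 (adjusted p = 0.0723), Igf1 by 0.83 (adjusted p = 0.143) and Angpt1 by 1.11 (adjusted p = 0.152), all by limma. In the slide fit Pdgfa (-0.98, adjusted p = 0.0409, limma) and Thbs1 (-3.58, adjusted p = 0.0261) passed, each set against saline heart 3 alone. Of the receptors of the platelet chemokines 2 were tested and 0 called (limma), among them Cxcr2 with a difference of -1.56 (adjusted p = 0.331).

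Markers of other blood and heart cells are given beside the set, and their part in the Gp9 and Treml1 differences was not tested. Summed levels below are sums of the signal over the array's 75th percentile. The calls stand beside 2.75% of all genes tested called higher and 2.41% called lower. Erythroid markers, 11 tested, had 7 above 0 and 4 below and 0 called (limma), with a summed level of 266 to 706 in rhTM hearts and 355 to 841 in saline hearts, and no array read Epb42, Rhag or Kel as well above background. Macrophage markers, 16 tested, had 13 above 0, 3 below and 1 called higher (Cx3cr1), with a summed level of 80.0 to 103 in rhTM hearts and 59.3 to 85.3 in saline hearts. Neutrophil markers, 17 tested, had 1 above 0, 16 below and 1 called lower (Cd177), with a summed level of 117 to 737 in rhTM hearts and 601 to 1532 in saline hearts. Cx3cr1 was well above background on 3 rhTM and 1 saline arrays and Cd177 on 0 rhTM and 3 saline arrays, so each entered the test through the group where it is high, and the Cx3cr1 call was lost in the slide fit (limma, adjusted p = 0.0549). Endothelial markers, 13 tested, had 2 above 0, 11 below and 0 called, with a summed level of 122 to 131 in rhTM hearts and 153 to 160 in saline hearts. Cardiomyocyte markers, 12 tested, had 10 above 0, 2 below and 1 called higher (Pln), with a summed level of 3343 to 4675 in rhTM hearts and 2248 to 3445 in saline hearts. The median difference was 0.37 for erythroid, 0.31 for macrophage, -3.40 for neutrophil, -0.27 for endothelial and 0.68 for cardiomyocyte markers. In the slide fit these medians were -0.42, 0.61, -4.00, -0.06 and 0.74, so the erythroid median turned sign.

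**Figure D4:**
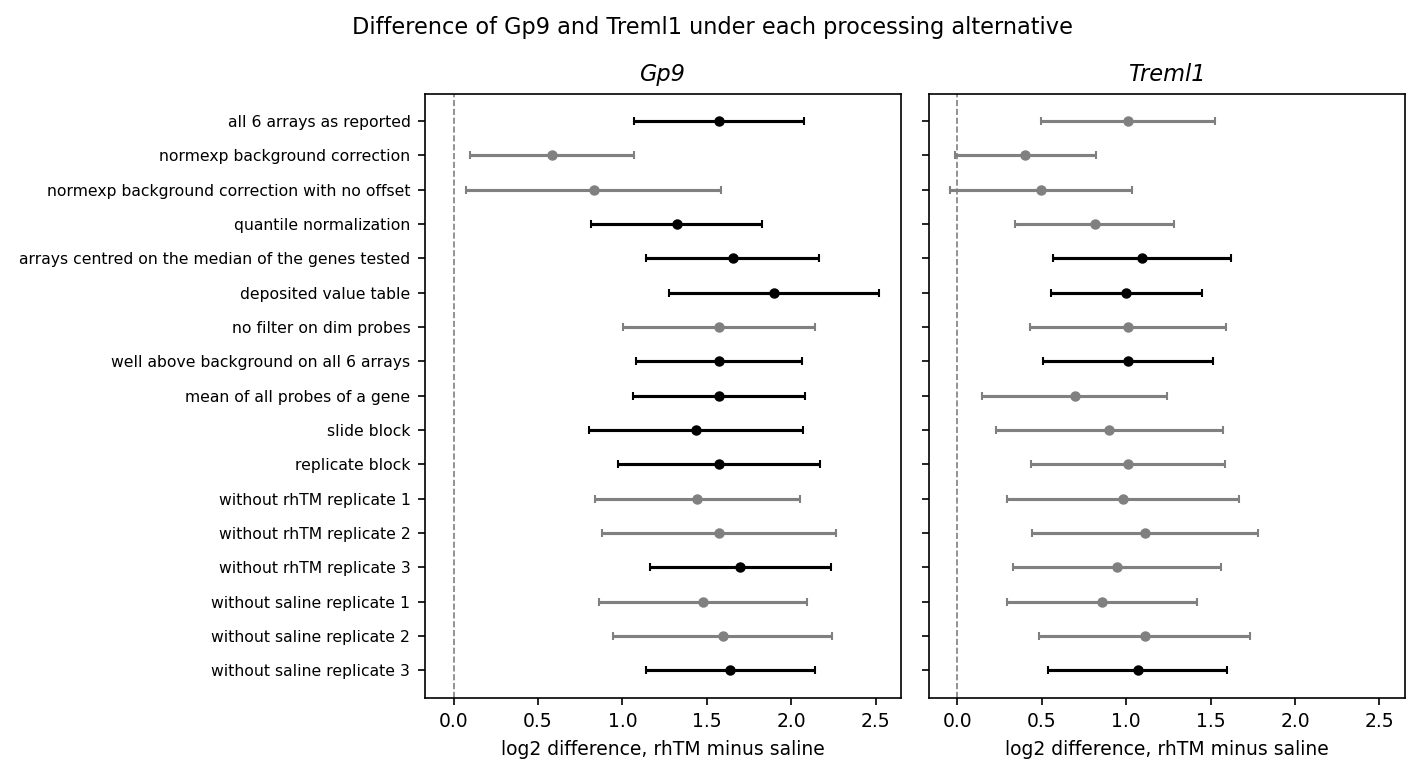
Difference in level of Gp9 and Treml1, rhTM minus saline on the log2 scale, with 95% intervals under each way of processing, black where the adjusted p was under 0.05 (limma). The estimates of Gp9 range from 0.58 to 1.90 and those of Treml1 stay above 0 in every setting drawn. The Treml1 intervals reach below 0 with normexp (-0.014) and with normexp without an offset (-0.041). The 1.90 is from the deposited value table, whose baseline per probe differs between slides.

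The genes whose levels ran most like those of the 3 brightest tested members over the 6 arrays were named as a description, and the arrays share a group split and a slide split. For Pf4 these were Aim2 (Pearson r = 0.989), Imp4 (0.988) and Chst12 (0.986), for Ppbp Mosmo (0.996), Piezo2 (0.993) and Slc25a32 (0.968), and for Treml1 Mpped1 (0.995), Il15 (0.993) and Agmat (0.992). An r over 0.9 was shared with 204 genes by Pf4, 18 by Ppbp and 440 by Treml1. Ppbp thus had the fewest genes with a like course over the 6 hearts among these 3 members.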

How the data were processed

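The members and gene lists were chosen with earlier results of these data known. Spot intensity was used as the authors deposited it, background-corrected by Agilent Feature Extraction 10.7.3.1 per the file headers (9.1 per the submitters' processing notes), with a grid of build mm9 and no scaling between arrays. The deposited log2 value table, whose scale and centring the sources used here do not give, served as an alternative. Its columns equal the log2 signal minus the 75th percentile minus a baseline per probe that differs between slides (SD 0.825). Its column medians were -0.08, 0.03 and 0.08 for rhTM and -0.02, -0.16 and 0.10 for saline hearts, and its direction follows the signal.

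Groups came from the sample titles. Controls were dropped, as were 368 of 56605 probes that carried an outlier flag, spots of a probe were averaged, and accessions were named through a RefSeq table of GRCm38.p6 (32789 of the 56237 probes kept matched, giving 22815 genes). The brightest probe stood for a gene. Differences are rhTM minus saline from limma 3.58.1 in R 4.3.3, checked on simulated data. Normexp (offset 50) used median spot signals, as the files hold no mean signals. Named genes were all 9 members with every probe, each list's called genes and up to 4 further by p, and 3 genes most like each of the 3 brightest tested members. Some of these are not reported here. Titles number the mice 1 to 3 in both groups and name no shared litter or day. Deviations of same-numbered mice correlated by 0.319, 0.235 and 0.372, so a replicate block was run, though rhTM 2 with saline 1 (0.314) and rhTM 1 with saline 2 (0.129) also deviated together. The number of arrays limits the precision.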

Additional observations from a re-analysis of the deposited data

How the results depend on the processing

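Over 17 other settings the 7 members gave 112 values. Of these, 88 are counted as unchanged, 7 lost the call, all of Gp9, 4 passed it, all of Treml1, and 13 turned sign. Unchanged means the same direction and side of the threshold, except for the values without scaling. Those were computed for Gp9 and Treml1 alone, had no test and are counted by direction only. The estimates of Gp9 and Treml1 lay above 0 in every setting run, though the Treml1 intervals reached below 0 with normexp, with and without an offset. The replicate block left Gp9 at 1.57 (limma, adjusted p = 0.0462) and the genes called at 357 higher and 242 lower, and it changed no other call of a member.

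The count of members called higher (1) was 2 with arrays centred on the median, with the deposited table and where only genes well above background on all 6 arrays were tested. It was 0 with no filter, with normexp and with normexp without an offset, where limma gave 3, 1 and 1 at an unadjusted p under 0.05. Without 1 array it was 0 to 2. The median of the members (0.27) was -0.052 in the slide block, 0.0008 with normexp without an offset, and 0.22 to 0.66 without 1 array.

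Genes called higher (405) numbered 2205 with the deposited table, 678 by probe, 132 with no filter, 260 with normexp and 79 with normexp without an offset. Those called lower (355) numbered 2314, 19 and 42 with the deposited table, no filter and normexp without an offset. Without 1 array they were 0 to 3007 and 0 to 2808. The 0 of both came without rhTM heart 1, where 1271 and 1314 genes had an unadjusted p under 0.05 (limma), and the highest counts came without saline heart 3.

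Signs turned for Gp1bb (-0.13 with normexp, -0.51 without its offset, -0.12 with quantiles, -0.031 in the slide block), Gp6 (-0.017 with normexp without an offset, -0.052 in the slide block), Clec1b (-0.21 in the slide block) and Pf4 (-0.57 with the deposited table, -0.70 in the slide block). Without 1 array Pf4 lay between -0.23 and 0.66 and Ppbp between -0.37 and 0.14. Septin5 gave 0.035 as a mean of its probes and Vwf 0.055 in the slide block. The cause was not tested. Normexp without an offset and the values without scaling were added after seeing the data. At 3 hearts a group, intervals of the uncalled members reach 0.64 or more above 0, and Gp1ba and Gp5 lay too near background to be read.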
